A study of Homo sapiens with 16 samples.

Results

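The cyclin-dependent kinase (CDK) inhibitor genes are the 7 human genes of the Cip/Kip class (CDKN1A, CDKN1B and CDKN1C) and the INK4 class (CDKN2A, CDKN2B, CDKN2C and CDKN2D), taken here together with CDKN2B-AS1, the long noncoding RNA transcribed through the CDKN2A and CDKN2B locus. They were found by gene symbol, and all 8 were present among the 62069 gene identifiers counted in 16 RNA-seq libraries of the cell line IMR90 ER:RAS. These are human fibroblasts from lung in which an oncogenic RAS protein, fused to an oestrogen receptor part, is activated by 4-hydroxytamoxifen (4OHT). All 4 groups of 4 libraries carry ER:RAS, were at passage 15 and were collected at day 6. The group shAHCY_2 (replicates 57 to 60) carried a hairpin against AHCY and was given 4OHT, and shAHCY_4 (replicates 61 to 64) carried a second hairpin and was given 4OHT. The group EV_4OHT (replicates 53 to 56) is labelled senescent and was EV cells given 4OHT, and EV (replicates 49 to 52) is labelled non-senescent. The 4OHT dose was 100 nM. No group is labelled as 4OHT without ER:RAS, as a hairpin without 4OHT, or as a hairpin not aimed at AHCY. Effects of 4OHT itself therefore cannot be told apart from those of RAS. Nor can effects of carrying a hairpin be told apart from those of lower AHCY. AHCY hydrolyses S-adenosylhomocysteine, the by-product of cellular methylation reactions. The labels do not give the hairpin sequences or the vector, nor whether each library had its own culture. The p-values therefore reflect only how the libraries of a group spread, and that spread may be technical.

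CDK inhibitors hold back the kinases that drive cells through division. INK4 proteins bind CDK4 and CDK6 and keep them from pairing with D-type cyclins, while Cip/Kip proteins bind assembled cyclin-CDK complexes, CDK2 complexes among them. With those kinases held back, the retinoblastoma protein stays bound to E2F factors and the genes of DNA replication stay off. In fibroblasts with an active RAS oncoprotein, CDKN1A (p21) and CDKN2A (p16) are known as carriers of the senescence arrest, and CDKN2A also encodes ARF, which binds the ubiquitin ligase MDM2.

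Library totals ran between 8236199 and 18235787 counts, and 13526 genes passed the filter on low counts. AHCY, the targeted gene, averaged 18.5 ± 4.54 CPM (counts per 1e+06, TMM-scaled) in shAHCY_2 and 14.7 ± 2.19 CPM in shAHCY_4, against 164 ± 8.08 CPM in EV_4OHT and 114 ± 11.3 CPM in EV (SD, n = 4 each). The summed level of 10 fibroblast markers was 5040 to 5540 CPM in shAHCY_2, 4940 to 5580 CPM in shAHCY_4, 4920 to 5110 CPM in EV_4OHT and 10800 to 12500 CPM in EV, with none of the 10 at 0. The endothelial markers PECAM1 and CDH5 and the T cell marker CD3E were at 0 in every group. The sums reached at most 2 CPM for 4 endothelial markers and 1.05 CPM for 5 blood markers. The 5 epithelial markers summed to between 41.6 and 58 CPM, with KRT18 as their highest member in every group. Replicate 59 of shAHCY_2 stood apart in base composition: the rank correlation between a gene's deviation from the mean of all libraries and its GC content was -0.535, against -0.266 to 0.281 in the other libraries.

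The promoters of the genes at the centre of the results are given here: CDKN1A, CDKN2A and CDKN2B, which rose with 4OHT, and CDKN1B, which fell. Both starts of CDKN2A are given, and its counts do not separate them. Each is the 250 bases before a RefSeq start on GRCh38.p14, 5′ to 3′ on the gene's own strand. Capitals mark the GC box GGGCGG (on either strand) and the CCAAT box (on either strand). Of 35116 promoter windows of the same length, 42.6% held a GC box and 32% held CCAAT.
CDKN1A (GRCh38.p14 chr6:36678464-36678713, plus strand): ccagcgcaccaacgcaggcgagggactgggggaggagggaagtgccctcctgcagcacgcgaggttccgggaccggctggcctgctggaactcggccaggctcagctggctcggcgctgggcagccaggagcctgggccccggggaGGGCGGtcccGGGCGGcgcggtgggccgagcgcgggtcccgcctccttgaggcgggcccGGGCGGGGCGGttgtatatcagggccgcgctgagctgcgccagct
CDKN2A, ARF start (GRCh38.p14 chr9:21995325-21995574, minus strand): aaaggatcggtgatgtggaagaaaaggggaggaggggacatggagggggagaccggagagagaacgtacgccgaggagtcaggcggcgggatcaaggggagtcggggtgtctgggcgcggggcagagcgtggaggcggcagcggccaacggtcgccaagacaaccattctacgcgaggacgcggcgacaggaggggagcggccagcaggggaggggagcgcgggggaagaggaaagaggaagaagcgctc
CDKN2A, p16 start (GRCh38.p14 chr9:21974858-21975107, minus strand): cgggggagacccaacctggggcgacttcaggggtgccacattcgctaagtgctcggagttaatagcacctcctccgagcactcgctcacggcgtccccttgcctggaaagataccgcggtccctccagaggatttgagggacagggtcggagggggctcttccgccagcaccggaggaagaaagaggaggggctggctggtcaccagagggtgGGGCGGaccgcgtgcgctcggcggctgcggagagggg
CDKN2B (GRCh38.p14 chr9:22009306-22009555, minus strand): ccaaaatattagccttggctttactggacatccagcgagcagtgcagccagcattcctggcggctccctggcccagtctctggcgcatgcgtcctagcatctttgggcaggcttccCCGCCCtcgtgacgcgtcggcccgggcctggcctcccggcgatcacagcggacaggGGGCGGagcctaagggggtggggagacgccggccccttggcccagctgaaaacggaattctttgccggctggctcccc
CDKN1B (GRCh38.p14 chr12:12717118-12717367, plus strand): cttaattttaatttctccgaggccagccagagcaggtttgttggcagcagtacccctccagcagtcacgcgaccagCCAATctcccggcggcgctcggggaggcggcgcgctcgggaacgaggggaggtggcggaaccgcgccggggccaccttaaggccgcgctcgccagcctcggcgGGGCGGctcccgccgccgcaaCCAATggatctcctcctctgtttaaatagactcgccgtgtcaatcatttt

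The CDKN1A window held 4 GC boxes, an overlapping pair among them, and no CCAAT. CDKN2B held 2 GC boxes and no CCAAT, and CDKN1B held 1 GC box and 2 CCAAT boxes. The 2 CDKN2A windows had no motif in common: the window before the ARF start held neither, and the window before the p16 start held 1 GC box. Further motifs searched on either strand were the CHR element TTTGAA (in 13.3% of all windows), the AP-1 site TGANTCA (6.57%), the E-box CACGTG (6.34%) and the TATA box TATAAA (10.7%). None of them was found in the 5 windows printed. In the RefSeq windows not printed, CDKN2D held 2 GC boxes and 1 CCAAT, and CDKN2B-AS1 held 2 GC boxes and no CCAAT. Of the 3 CDKN2C windows, 1 held 5 GC boxes and no CCAAT, 1 held 1 GC box, 1 CCAAT and 1 CACGTG, and 1 held 1 CACGTG with neither of the others.

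On chromosome 9 of that assembly the 2 CDKN2A starts lie 20467 bases apart. The CDKN2B-AS1 start lies 533 bases from the ARF start, on the opposite strand. The CDKN2B start lies 13981 bases from the ARF start, on the same strand as CDKN2A. The counts are per gene, so p16 and ARF transcripts could not be separated. In the GENCODE v29 annotation, 341 exon bases are shared between CDKN2A and CDKN2B-AS1 on opposite strands, which is 7.88% of the CDKN2A exon bases and 4.25% of those of CDKN2B-AS1. The library method, Smart-Seq2, does not mark strand, so reads there could not be assigned to either gene. CDKN2A and CDKN2B transcripts also share 92 stretches of 25 bases, 2.07% of those in CDKN2A and 2.27% of those in CDKN2B. In CDKN1A, 4.79% of exon bases overlap the antisense RNA DINOL.

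CDKN1A was by far the most abundant inhibitor transcript in every group. Per kilobase of the longest annotated transcript, CDKN1A averaged 1081 ± 95.3 CPM in shAHCY_2, 1278 ± 109 CPM in shAHCY_4, 1159 ± 39.5 CPM in EV_4OHT and 450 ± 45.2 CPM in EV (SD, n = 4 each). That was 91.2%, 92.7%, 90.8% and 92.6% of the summed level per kilobase of all 8 genes in those groups, in the same order. With the median transcript length the shares were 85.8%, 88.1%, 85.5% and 90.5%. With the coding length, which leaves out CDKN2B-AS1, they were 88.7%, 90.5%, 88.6% and 94.1%. CDKN2A and CDKN2B came next in the 3 groups given 4OHT, with CDKN2B at 52.5 ± 11.2, 51.5 ± 3.51 and 55.9 ± 1.59 CPM per kilobase in shAHCY_2, shAHCY_4 and EV_4OHT. CDKN2A stood at 44.9 ± 1.09, 43.5 ± 5.57 and 55.9 ± 3.72 CPM per kilobase in those groups. In EV, CDKN2A at 24 ± 0.815 CPM per kilobase was second and CDKN2B at 3.98 ± 0.231 came after it, followed by CDKN1B at 3.54 ± 0.656 and CDKN2D at 2.75 ± 0.475. CDKN2B, CDKN1B and CDKN2D in EV lay close to one another with this length. With the coding length they kept this order but lay further apart, at 37.6, 15.3 and 7.85 CPM per kilobase. With the median transcript length they stood at 14.6, 12.8 and 3.12 CPM per kilobase. CDKN2C, CDKN1C and CDKN2B-AS1 were the lowest 3 in every group, at no more than 1.2 CPM per kilobase on average.

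**Figure D1:**
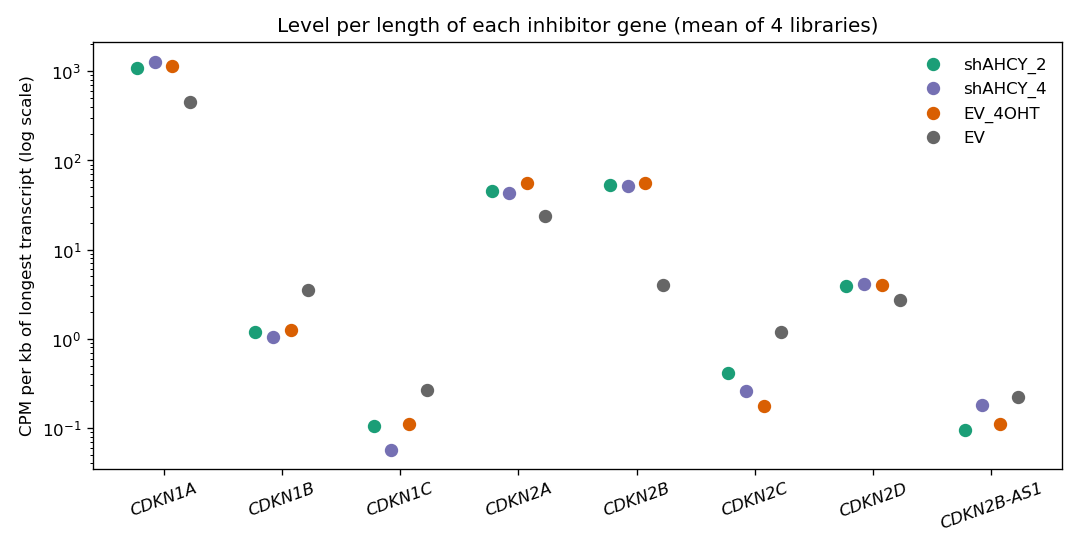
Mean level of each gene in CPM per kilobase of its longest transcript on a log axis, with a point for each group of 4 libraries (shAHCY_2, shAHCY_4, EV_4OHT and EV, left to right). CDKN1A lies above all others in every group, at 1081, 1278, 1159 and 450 CPM per kilobase, while CDKN2B reaches the level of CDKN2A in the groups given 4OHT and lies below it in EV.

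The balance between the 2 INK4 genes at the locus differed between EV and the 3 groups given 4OHT. The CDKN2B level per kilobase divided by that of CDKN2A was 1.17 ± 0.264 in shAHCY_2, 1.19 ± 0.108 in shAHCY_4, 1 ± 0.0469 in EV_4OHT and 0.165 ± 0.009 in EV. CDKN2B supplied 51.2%, 52%, 48.2% and 12.5% of the INK4 class total per kilobase in those groups. In shAHCY_2, replicate 59, which stood apart in base composition, had a ratio of 1.56 and a share of 59.1%. The other shAHCY_2 libraries had ratios of 1.1, 1.02 and 1 and shares of 49.5%, 48.2% and 47.9%. The EV_4OHT libraries had ratios of 0.965 to 1.07 and shares of 47.5% to 49.8%. The value of the ratio depends on the length used: with the median transcript length it was 2.57, 2.61, 2.2 and 0.364, and with the coding length 4.31, 4.37, 3.69 and 0.61. CDKN2A was above CDKN2B in EV and CDKN2B was at or above CDKN2A in the 3 groups given 4OHT under each of these lengths. Within the Cip/Kip class, the CDKN1A level per kilobase was 947 ± 273 times that of CDKN1B in shAHCY_2, 1300 ± 376 times in shAHCY_4, 959 ± 215 times in EV_4OHT and 131 ± 30.1 times in EV. This multiple too depends on the length: taken from the group means, it was 391, 534, 403 and 55.3 with the median transcript length, and 959, 1310, 991 and 136 with the coding length, in the same order of groups.

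The comparison of EV_4OHT with EV asked how the inhibitors change with RAS-induced senescence. The 7 inhibitor genes tested include CDKN2B-AS1 and leave out CDKN1C, which did not pass the filter on low counts. Of these 7, 4 rose and 2 fell: CDKN2B, CDKN1A, CDKN2A and CDKN2D were higher, and CDKN1B and CDKN2C lower. The test was edgeR's quasi-likelihood test with Benjamini-Hochberg adjustment over all 13526 genes, and a call is an adjusted p under 0.05. Over all genes tested, 26.7% were called higher and 26.8% lower, and the median log2 change was 0.56 over the 7 genes against -0.02 over all genes. In bulk RNA, fewer cells of a kind and less RNA per cell cannot be told apart. The summed fibroblast markers also differed between these groups, as given above, and the single markers did not all go the same way. COL1A1 (1170 CPM in EV_4OHT and 3770 CPM in EV), COL1A2 (1000 and 3510), COL3A1 (140 and 467) and DCN (122 and 995) were lower. So were LUM (66.9 and 121), THY1 (281 and 573) and PDGFRB (38.2 and 91.5). VIM (2010 and 2020) and PDGFRA (96.6 and 96.5) were nearly level, and FAP (105 and 90.7) was higher. The part of these markers in the results was not tested.

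**Figure D2:**
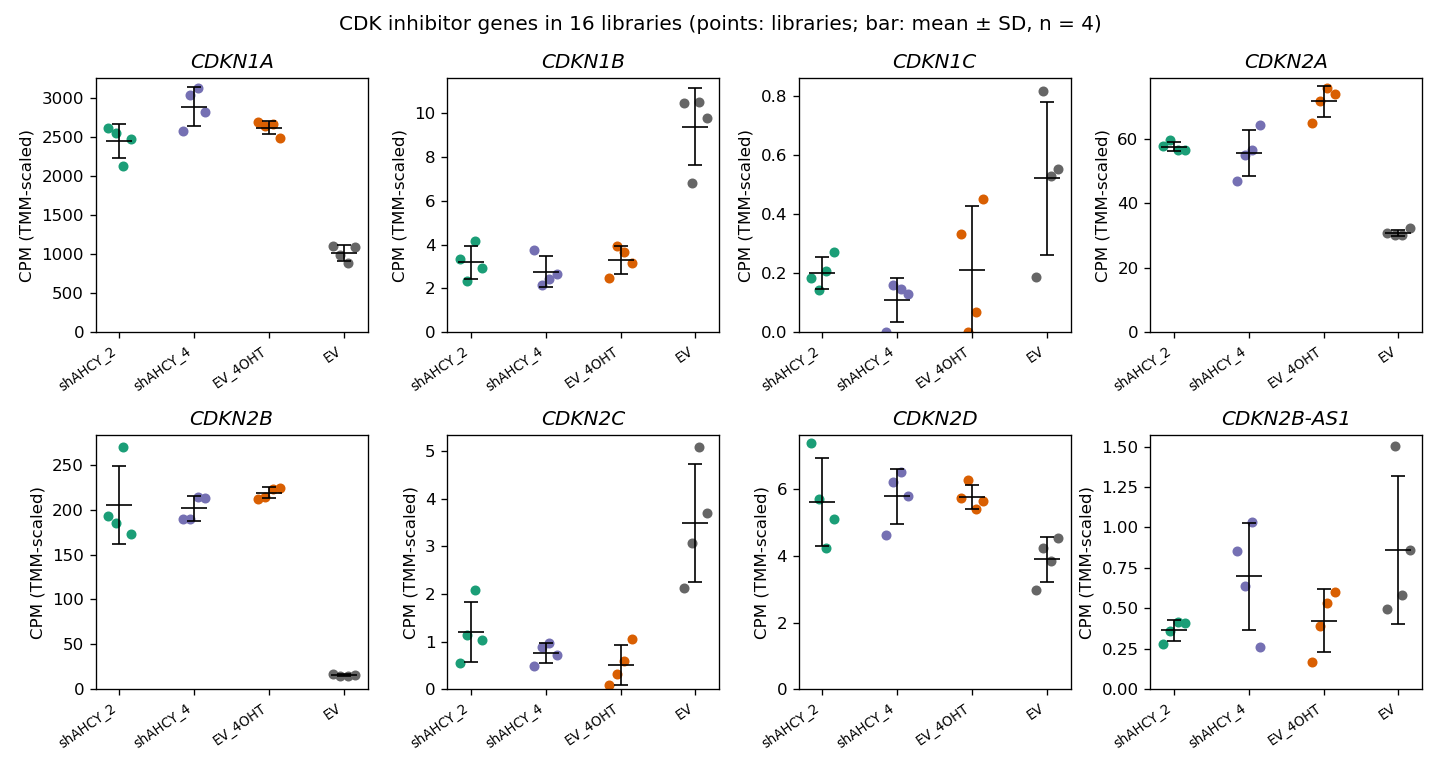
TMM-scaled CPM of each gene in the 16 libraries, on linear axes from 0 (points are libraries, the bar is the mean ± SD of 4), with shAHCY_2, shAHCY_4, EV_4OHT and EV from left to right. For CDKN2B the 12 libraries given 4OHT lie between 172.9 and 270 CPM and the EV libraries between 14.7 and 16.8 CPM, while CDKN1B and CDKN2C are highest in EV.

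CDKN1A encodes p21, an inhibitor of CDK2 complexes induced by DNA damage and other stress. It had 2701, 2642, 2669 and 2498 CPM in the EV_4OHT libraries, against 1101, 996.6, 885.1 and 1099 CPM in the EV libraries. The groups did not overlap, and CDKN1A was 2.58-fold higher in EV_4OHT (log2 fold change 1.36 ± 0.08 SE, edgeR adjusted p = 1.78e-12). CDKN1B encodes p27, an inhibitor of cyclin E and cyclin A complexes that is controlled largely by protein breakdown. It had 2.49, 3.93, 3.68 and 3.16 CPM in EV_4OHT, against 10.4, 6.83, 10.5 and 9.78 CPM in EV. Again the groups did not overlap, in the opposite direction: CDKN1B fell by 1.5 ± 0.2 on the log2 scale (edgeR adjusted p = 1.76e-06).

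CDKN1C encodes p57, an imprinted inhibitor with roles in development. It had 4, 0, 1 and 6 counts in EV_4OHT, against 3, 12, 10 and 9 counts in EV, and it did not pass the filter on low counts. Its CPM values overlapped between those groups, and the exact two-sided permutation test on CPM gave p = 0.143 (0.214 adjusted over the 6 comparisons). The smallest p that 4 against 4 libraries allow is 0.0286. The hairpin groups held 2, 2, 2 and 4 counts (shAHCY_2) and 0, 2, 2 and 2 counts (shAHCY_4), too few to show a difference from EV_4OHT at this depth. For shAHCY_4 against EV the exact permutation test gave p = 0.0286, the smallest it can give, and 0.171 after adjustment.

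CDKN2B encodes p15, the INK4 protein best known for its induction by transforming growth factor beta. It had 212.4, 214.5, 223.5 and 224.7 CPM in EV_4OHT, against 16.8, 14.7, 15.2 and 15.6 CPM in EV. This was the largest change among the 7 genes tested, 14.1-fold (log2 fold change 3.81 ± 0.12 SE, edgeR adjusted p = 2.45e-17). CDKN2A had 65, 72, 76 and 73.9 CPM in EV_4OHT, against 30.9, 30, 30.1 and 32.3 CPM in EV. All EV_4OHT libraries were above all EV libraries for both genes, and CDKN2A was 2.33-fold higher (log2 fold change 1.22 ± 0.09 SE, edgeR adjusted p = 9.08e-11). The EV libraries of both genes lay within a narrow range, with SDs of 0.905 CPM for CDKN2B and 1.05 CPM for CDKN2A.

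CDKN2C encodes p18, an INK4 protein whose transcript is known as an E2F target. It had 0.0831, 0.314, 0.603 and 1.05 CPM in EV_4OHT, against 2.11, 3.07, 5.08 and 3.69 CPM in EV. Every EV_4OHT library was below every EV library, and CDKN2C fell by 2.72 ± 0.44 on the log2 scale (edgeR adjusted p = 1.73e-05), from 28 counts in all EV_4OHT libraries and 235 in all EV libraries. CDKN2D encodes p19, the remaining INK4 protein. It had 5.74, 6.28, 5.42 and 5.64 CPM in EV_4OHT, against 2.99, 4.23, 3.86 and 4.55 CPM in EV. The ranges did not overlap, but the change was the smallest of the 4 increases (log2 fold change 0.56 ± 0.18 SE, edgeR adjusted p = 0.012). Without EV replicate 49, the lowest of the EV libraries, CDKN2D no longer passed (log2 fold change 0.42, edgeR adjusted p = 0.0622). The INK4 class was therefore divided as well, with 3 members higher and 1 lower.

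CDKN2B-AS1, also called ANRIL and known for recruiting Polycomb proteins to the locus, was close to the detection limit. It had 0.166, 0.393, 0.536 and 0.602 CPM in EV_4OHT, against 0.498, 1.5, 0.582 and 0.861 CPM in EV, from 23 and 55 counts in all. The groups overlapped and the difference did not pass the test (log2 fold change -0.96 ± 0.47 SE, edgeR adjusted p = 0.0893). Without EV replicate 49 it passed narrowly (log2 fold change -1.18, edgeR adjusted p = 0.0496). Of the 3 protein-coding neighbours listed for the locus, the 2 that could be tested both rose, where 26.7% of all genes tested rose. The number that rose was 1 to 2 over the alternatives. MTAP, a methionine salvage enzyme, had 91.1 CPM in EV_4OHT and 48.2 CPM in EV on average (log2 fold change 0.92 ± 0.12 SE, edgeR adjusted p = 7.29e-07). DMRTA1, which encodes a DM-domain transcription factor, had 1.5 CPM in EV_4OHT and 0.193 CPM, close to the detection limit, in EV (log2 fold change 2.88 ± 0.60 SE, edgeR adjusted p = 0.000358). Neither passed in the hairpin comparisons with EV_4OHT.

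The comparisons of each hairpin with EV_4OHT asked how the inhibitors of senescent cells change when AHCY is lowered. CDKN2A was the gene of the 7 called in them, lower with shAHCY_2 and lower with shAHCY_4, and no inhibitor gene was called higher. Over all genes tested, 3.91% were called higher and 3.07% lower with shAHCY_2, and 7.58% higher and 6.86% lower with shAHCY_4. Both comparisons share the EV_4OHT libraries. The count of 0 higher genes in edgeR was also 0 in DESeq2 and in limma-voom for each hairpin, and at an unadjusted p under 0.05 it was 1 (CDKN2C) with shAHCY_2 and 0 with shAHCY_4.

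CDKN2A had 57.8, 59.6, 56.7 and 56.5 CPM in shAHCY_2 and 47, 55, 56.7 and 64.4 CPM in shAHCY_4, against 65, 72, 76 and 73.9 CPM in EV_4OHT. All libraries of both hairpins lay below all EV_4OHT libraries, by a narrow margin for the highest shAHCY_4 library. The log2 fold change was -0.32 ± 0.09 with shAHCY_2 (edgeR adjusted p = 0.0286) and -0.36 ± 0.09 with shAHCY_4 (edgeR adjusted p = 0.00718), where the errors are SE. The shAHCY_4 call held under all 25 alternatives, with adjusted p-values of 0.000795 to 0.0297. The shAHCY_2 call was lost in 8 of 25, including 5 that left out a library (EV_4OHT replicate 54, 55 or 56, or shAHCY_2 replicate 57 or 60), with adjusted p-values of 0.00598 to 0.0936 over the 25. With each library's GC trend removed, the shAHCY_2 call was among those lost (log2 fold change -0.25, edgeR adjusted p = 0.0534), and replicate 59 of shAHCY_2 stood at 68.5 CPM, above replicate 53 of EV_4OHT at 64.6 CPM. CDKN2A nevertheless stood above EV in both hairpin groups, 1.87-fold in shAHCY_2 and 1.81-fold in shAHCY_4 (edgeR adjusted p = 1.9e-08 and 3.85e-08).

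CDKN2B had 193.2, 185.1, 270 and 172.9 CPM in shAHCY_2 and 189.4, 190, 214 and 212.9 CPM in shAHCY_4, beside the 212.4 to 224.7 CPM in EV_4OHT. In shAHCY_2, 3 libraries were below all EV_4OHT libraries and replicate 59 was above them. The log2 fold change was -0.09 with a 95% interval of -0.29 to 0.11 for shAHCY_2 and -0.12 with an interval of -0.32 to 0.08 for shAHCY_4 (edgeR adjusted p = 0.636 and 0.5). Without replicate 59, the library that stood apart in base composition, CDKN2B passed as lower in shAHCY_2 (log2 fold change -0.25, edgeR adjusted p = 0.0327). CDKN2B has a GC content of 44.6%, the lowest of the 7 protein-coding inhibitor genes, against 58.1% for CDKN1A and 61.4% for CDKN2A. With each library's GC trend removed, replicate 59 stood at 253.1 CPM for CDKN2B beside 194.8, 185.4 and 174.3 CPM in the other shAHCY_2 libraries. The EV_4OHT libraries then stood at 215.6 to 226.2 CPM. The cause of the high value in replicate 59 was not tested.

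CDKN1A had 2625, 2561, 2139 and 2475 CPM in shAHCY_2 and 2577, 3046, 3133 and 2830 CPM in shAHCY_4, beside the 2498 to 2701 CPM in EV_4OHT. Both hairpin groups overlapped EV_4OHT. The log2 fold change was -0.10 with a 95% interval of -0.25 to 0.05 for shAHCY_2 and 0.14 with an interval of -0.01 to 0.29 for shAHCY_4 (edgeR adjusted p = 0.475 and 0.252). With the GC trend removed, shAHCY_4 passed as higher (log2 fold change 0.13, edgeR adjusted p = 0.0312). Without that removal, p21 mRNA did not pass as different from senescent EV cells with either hairpin, which does not show equal levels.

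The low-abundance inhibitors did not pass in either hairpin comparison. CDKN1B had 3.33, 2.36, 4.15 and 2.94 CPM in shAHCY_2 and 3.77, 2.15, 2.44 and 2.68 CPM in shAHCY_4, and both ranges overlapped EV_4OHT. Its log2 fold changes were -0.08 ± 0.23 SE with shAHCY_2 and -0.30 ± 0.23 SE with shAHCY_4. CDKN2C had 0.555, 1.14, 2.08 and 1.02 CPM in shAHCY_2 and 0.487, 0.877, 0.962 and 0.719 CPM in shAHCY_4, from 57 and 39 counts in all. These values overlapped EV_4OHT too, and the log2 fold changes of 1.15 ± 0.50 SE with shAHCY_2 and 0.56 ± 0.52 SE with shAHCY_4 did not pass (edgeR adjusted p = 0.173 and 0.537). CDKN2D had means of 5.62 ± 1.33 CPM in shAHCY_2 and 5.79 ± 0.827 CPM in shAHCY_4, against 5.77 ± 0.366 CPM in EV_4OHT (SD, n = 4 each). CDKN2B-AS1 had means of 0.365 ± 0.0638 CPM in shAHCY_2 and 0.697 ± 0.333 CPM in shAHCY_4, against 0.424 ± 0.193 CPM in EV_4OHT, and its 95% intervals of -1.31 to 0.85 and -0.34 to 1.63 on the log2 scale were wide at this depth.

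**Figure D3:**
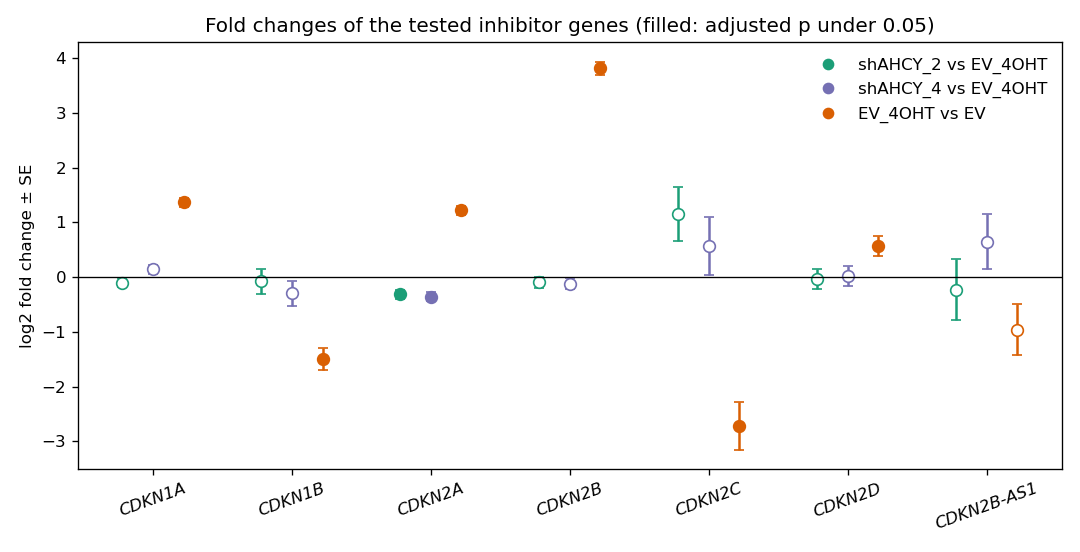
Log2 fold change ± SE of the 7 tested genes for shAHCY_2 over EV_4OHT, shAHCY_4 over EV_4OHT and EV_4OHT over EV, with filled points for an adjusted p under 0.05. The senescence comparison spans -2.72 (CDKN2C) to 3.81 (CDKN2B), while the filled points of the hairpin comparisons are CDKN2A at -0.32 and -0.36.

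Set against non-senescent EV, both hairpin groups kept the split of the family. In shAHCY_2, 4 genes were higher and 3 lower than in EV, where 24.5% of all genes were higher and 23.6% lower. In shAHCY_4, 4 were higher and 2 lower, where 25.4% of all genes were higher and 25.8% lower. CDKN2B was 13.2-fold higher in shAHCY_2 and 13-fold higher in shAHCY_4. CDKN1A was 2.4-fold and 2.84-fold higher in these groups, and CDKN2D 1.44-fold and 1.5-fold higher (edgeR adjusted p = 0.0207 and 0.0107 for CDKN2D). CDKN1B fell by 1.58 in shAHCY_2 and by 1.8 in shAHCY_4 on the log2 scale, and CDKN2C by 1.57 and by 2.16. CDKN2B-AS1 in shAHCY_2 passed at the edge of the threshold (log2 fold change -1.19 ± 0.49 SE, edgeR adjusted p = 0.04995) and lost the call in 16 of 23 alternatives. The EV libraries are shared by these comparisons and the senescence comparison. The CDKN2D call in shAHCY_2 was lost without EV replicate 49 (log2 fold change 0.39), shAHCY_2 replicate 57 (0.36) or replicate 58 (0.50) and when only the 2 groups compared were fitted (0.53), and that in shAHCY_4 without EV replicate 49 (0.45).

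Between the hairpins, none of the 7 inhibitor genes passed, where 1.24% of all genes tested were called in either direction. DESeq2 and limma-voom also called 0 of the 7, and 1, CDKN1A, had an unadjusted p under 0.05. CDKN1A was lower in shAHCY_2 than in shAHCY_4 by a log2 difference of -0.24 ± 0.08 SE (edgeR adjusted p = 0.117), with a 95% interval of -0.39 to -0.09. With the GC trend removed it passed (log2 difference -0.18, edgeR adjusted p = 0.0216). For CDKN2A the difference was 0.04 with a 95% interval of -0.13 to 0.21, and for CDKN2B 0.02 with an interval of -0.18 to 0.22.

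The partners and regulators of the inhibitors are given next, from gene lists that do not include the inhibitors. Among 11 CDKs and cyclins, 2 rose and 5 fell in EV_4OHT against EV, where 26.7% of all genes tested rose and 26.8% fell. The 5 that fell were CDK1, CCNA2 and CCNB1, known from S phase and mitosis, CCNE2, known from entry into S phase, and CDK6. The 2 that rose were CCND2 (log2 fold change 0.91 ± 0.11 SE, edgeR adjusted p = 5.33e-07) and CCNE1 (0.43 ± 0.14 SE, edgeR adjusted p = 0.0131). CCNA2, the cyclin of S phase, had 6.69 CPM in EV_4OHT and 84.3 CPM in EV (log2 fold change -3.65 ± 0.12 SE, edgeR adjusted p = 3.31e-17). CDK6, a direct target of INK4 proteins, had 64.1 CPM in EV_4OHT and 133.1 CPM in EV (log2 fold change -1.05 ± 0.09 SE, edgeR adjusted p = 9.6e-10). CDK4, the other INK4 target, had 167.4 CPM in EV_4OHT and 165.8 CPM in EV (log2 fold change 0.01 ± 0.07 SE).

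With the hairpins, 5 of the 11 were higher and 1 lower in shAHCY_2 against EV_4OHT, and 5 higher and 0 lower in shAHCY_4. The gene lower in shAHCY_2 was CCND2, at 37.7 CPM against 56.8 CPM in EV_4OHT (log2 fold change -0.60 ± 0.11 SE, edgeR adjusted p = 0.00162). Of all genes tested, 3.91% were higher and 3.07% lower in shAHCY_2, and 7.58% higher and 6.86% lower in shAHCY_4. For the count of 0, DESeq2 and limma-voom each gave 1, and an unadjusted p under 0.05 gave 2. CDK1, the mitotic kinase, had 29.7 CPM in shAHCY_2 and 23.1 CPM in shAHCY_4, against 7.36 CPM in EV_4OHT and 96.7 CPM in EV. CCNA2 had 20.6 CPM in shAHCY_2 and 17.8 CPM in shAHCY_4, against 6.69 CPM in EV_4OHT. CCNB1, the mitotic cyclin, had 81.1 CPM in shAHCY_2 and 95.1 CPM in shAHCY_4, against 53.6 CPM in EV_4OHT. All 3 passed with both hairpins, with edgeR adjusted p-values of 1.21e-07 and 1.51e-06 for CDK1, 2.91e-09 and 2.15e-08 for CCNA2, and 1.17e-05 and 6.84e-08 for CCNB1 (shAHCY_2 before shAHCY_4).

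Of 12 pocket protein and E2F genes tested, 3 rose and 6 fell in EV_4OHT against EV, beside 26.7% and 26.8% of all genes. E2F7, an E2F repressor, was 165.9 CPM in EV_4OHT and 41.9 CPM in EV (log2 fold change 1.98 ± 0.10 SE, edgeR adjusted p = 1.99e-13). RBL1, which encodes the pocket protein p107, was 3.14 CPM in EV_4OHT and 17.5 CPM in EV (log2 fold change -2.47 ± 0.20 SE, edgeR adjusted p = 4.8e-10). E2F8 had 0 counts in the EV_4OHT libraries and 121 in the EV libraries, so it was at least 32.4-fold lower, with the floor set at 3 counts for the whole group. With shAHCY_2 none of the 12 passed (0 in DESeq2 and limma-voom, and 4, all higher, at an unadjusted p under 0.05), and with shAHCY_4 2 were higher, RBL1 (7.5 CPM in shAHCY_4 and 3.14 CPM in EV_4OHT) and RBL2 (31.8 CPM in shAHCY_4 and 20 CPM in EV_4OHT). The list's median log2 change was -0.29 in EV_4OHT against EV, also with E2F8 at its bound.

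Of 11 subunits of the ubiquitin ligases that mark p21 and p27 for breakdown, 1 rose and 6 fell in EV_4OHT against EV, with 26.7% of all genes higher and 26.8% lower. The gene that rose was RNF123 (log2 fold change 0.29 ± 0.12 SE, edgeR adjusted p = 0.0449), and the number that rose was 0 to 2 over the alternatives. SKP2 and CKS1B, which together recognise p27, had 21.4 and 37.6 CPM in EV_4OHT, against 58.5 and 87 CPM in EV. DTL, which recognises p21 on replicating chromatin, had 4.62 CPM in EV_4OHT and 40.2 CPM in EV. All 3 passed, with log2 fold changes of -1.45, -1.21 and -3.12. The same 3 genes were those higher with each hairpin: DTL had 12.4 CPM in shAHCY_2 and 14.6 CPM in shAHCY_4, against 4.62 CPM in EV_4OHT (edgeR adjusted p = 5.56e-06 and 3.34e-07). SKP2 had 29.6 CPM in shAHCY_2 and 27 CPM in shAHCY_4, and CKS1B 52.9 and 54.7 CPM.

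**Figure D4:**
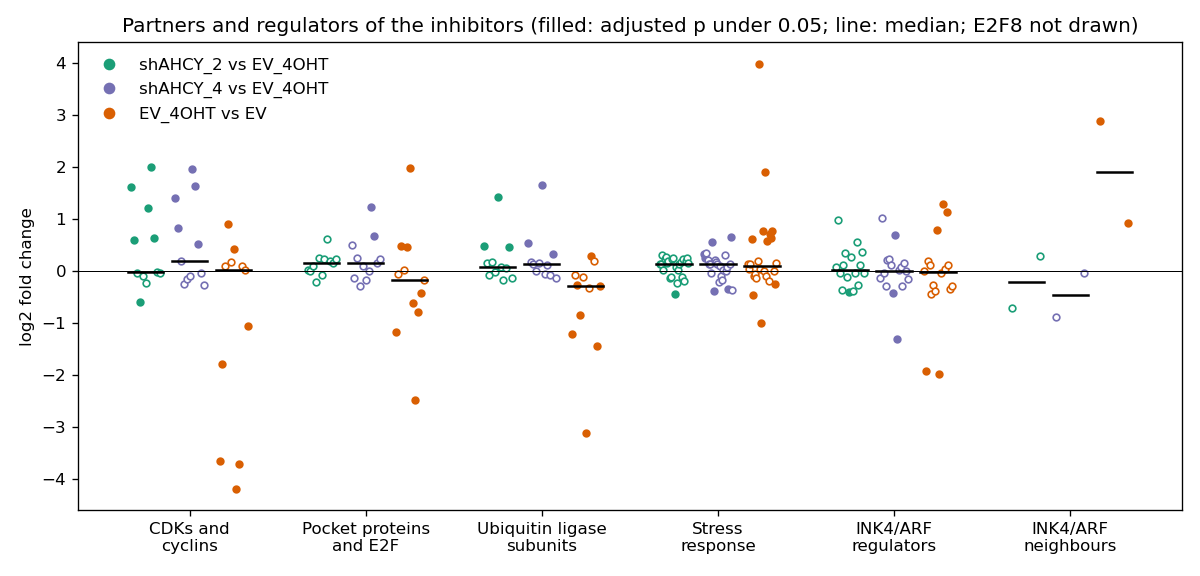
Log2 fold change of each tested gene of 6 lists for shAHCY_2 over EV_4OHT, shAHCY_4 over EV_4OHT and EV_4OHT over EV (filled points have an adjusted p under 0.05, the line is the median of the drawn genes, E2F8 is left out because EV_4OHT held no count). In the CDK and cyclin list the lowest points are those of EV_4OHT over EV, CCNE2 at -4.19 among them, and the filled points above 0 for both hairpins include CDK1 and CCNA2.

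Genes of the DNA damage and stress response, in which CDKN1A is also induced, were mixed. Of 24 tested, 8 rose and 3 fell in EV_4OHT against EV, so the share that rose was near the 26.7% of all genes, and 26.8% of all genes fell. GDF15, a secreted stress factor, had 730.7 CPM in EV_4OHT and 46.1 CPM in EV (log2 fold change 3.99 ± 0.09 SE, edgeR adjusted p = 2.65e-19). PLK3, a stress kinase, had 153.1 CPM in EV_4OHT and 40.9 CPM in EV (log2 fold change 1.90 ± 0.09 SE, edgeR adjusted p = 4.46e-14). TNFRSF10B, a death receptor, had 284.7 CPM in EV_4OHT and 166.7 CPM in EV (log2 fold change 0.77 ± 0.09 SE, edgeR adjusted p = 1.34e-07). With the hairpins, 0 were higher and 1 lower in shAHCY_2, namely PHLDA3 (25.2 CPM in shAHCY_2 and 34.3 CPM in EV_4OHT). For that 0, DESeq2 and limma-voom also gave 0, and an unadjusted p under 0.05 gave 2. In shAHCY_4, 4 were higher and 2 lower, with XPC, a DNA repair factor, at 57.9 CPM in shAHCY_4 and 36.9 CPM in EV_4OHT (log2 fold change 0.65 ± 0.11 SE, edgeR adjusted p = 0.000171). FDXR was also higher in shAHCY_4 (0.56 ± 0.12 SE) and TNFRSF10B lower (-0.35 ± 0.09 SE).

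Regulators of the INK4/ARF locus were tested for 16 genes. In EV_4OHT against EV, 3 rose and 2 fell, beside 26.7% and 26.8% of all genes. The number that fell was 2 to 7 over the alternatives. EZH2, the Polycomb methyltransferase that represses the locus in dividing cells, had 6.63 CPM in EV_4OHT and 26.2 CPM in EV (log2 fold change -1.98 ± 0.12 SE, edgeR adjusted p = 5.59e-12). JUNB, an AP-1 subunit, had 57.3 CPM in EV_4OHT and 23.3 CPM in EV (log2 fold change 1.30 ± 0.11 SE, edgeR adjusted p = 1.18e-09). ETS2, an ETS factor known to activate p16 downstream of RAS, had 100.4 CPM in EV_4OHT and 58 CPM in EV (log2 fold change 0.79 ± 0.08 SE, edgeR adjusted p = 1.65e-08). ETS2 was lower with both hairpins, at 75.8 CPM in shAHCY_2 and 74.8 CPM in shAHCY_4 against 100.4 CPM in EV_4OHT (log2 fold changes -0.40 and -0.43, edgeR adjusted p = 0.00199 and 0.000688). ID1, an inhibitor of ETS and basic helix-loop-helix factors, was lower in shAHCY_4 (25.6 CPM in shAHCY_4 and 63.4 CPM in EV_4OHT) and EZH2 higher (10.8 CPM in shAHCY_4 and 6.63 CPM in EV_4OHT). In shAHCY_2 no regulator was called higher (also 0 in DESeq2 and limma-voom, and 4 at an unadjusted p under 0.05).

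The genes with the profile most like each inhibitor were ranked by the root mean square (RMS) difference of log2 CPM, centred on each gene's mean over the 16 libraries, among 8511 genes with a mean log2 CPM of at least 3. For CDKN2B these were SLC6A15, an amino acid transporter, at 0.124, MMP1, the interstitial collagenase, at 0.225 and ADTRP at 0.263, where the median RMS difference of all genes was 1.61. For CDKN1A they were SNX8, SRPX and GPANK1 at 0.0745 to 0.0961, with a median of 0.623. For CDKN2A they were DESI1, SMYD3 and PSENEN at 0.107 to 0.128, with a median of 0.48. SMYD3, a methyltransferase, had a log2 fold change of 1.28 in EV_4OHT against EV and of -0.40 and -0.36 with shAHCY_2 and shAHCY_4 against EV_4OHT. SMYD3 was picked for its likeness to CDKN2A in these same libraries, so fold changes like those of CDKN2A follow from the choice. For CDKN2C the nearest genes named were KIF20B, a mitotic kinesin, at 0.509 and HELLS, a chromatin remodeller, at 0.511, with a median of 1.16. CDKN1B lay nearest to SAMD4A, POGLUT3 and LOX, the collagen cross-linking enzyme, at 0.255 to 0.26 with a median of 0.776. CDKN2D lay nearest to TMEM177, TMEM171 and APRT at 0.141 to 0.153 with a median of 0.366. CDKN2B-AS1 lay nearest to IRF2, ING4 and NAA16 at 0.443 to 0.447 with a median of 0.642, beside an RMS of 0.596 of its own profile about its mean. Profiles of the inhibitors with few counts carry more counting error, and the 16 libraries are not independent of the 4 groups.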

How the data were processed

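The authors deposited whole-number counts per Ensembl gene for the 16 libraries, not normalized. Per the labels' protocols, total RNA was made into Smart-Seq2 libraries (Nextera XT). CASAVA 1.8.2, TopHat2 2.0.11, featureCounts 1.18.0 and the build hg19 (GRCh37) are named per the submitters' processing notes. The strand setting, the annotation or how reads with several matches were handled is not given in the sources used here. Symbols were matched for 50127 of 62069 identifiers, and the others held 0.503% of counts. All count columns were mapped to samples by their names.

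Tests used edgeR 4.0.16 under R 4.3.3 (filterByExpr by group, TMM factors, 1 quasi-likelihood model over all 16 libraries, two-sided tests, Benjamini-Hochberg over 13526 genes, threshold 0.05), giving log2 fold changes with the SE taken as the change over the square root of F. Intervals of 95% come from that SE. Levels are CPM scaled by TMM factors, mean ± SD. Alternatives used RLE, upper-quartile or no factors, DESeq2 1.42.0, limma-voom 3.58.1, other low-count filters, only the groups compared, removal of each library's GC trend, and leaving out each library. Transcript lengths, GC content and exon overlaps come from GENCODE v29, and promoters from RefSeq, both GRCh38, so no coordinate of the count files' own build is given. RefSeq promoters were matched for 7 of the 8 genes. The edgeR fit was also run on simulated counts. These had far fewer changed genes than were called in EV_4OHT against EV, and no GC trend. The fit was therefore not tested under those conditions.

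All 8 inhibitor genes are named. Each pathway list contributes up to 3 genes with the smallest adjusted p in each of 3 comparisons, and each inhibitor its 3 nearest profiles. Some genes that this rule would give are not reported here, and the stress response list is given without 1 of them. CDK4, CDK6, CCND2, CCNE1, CCNE2 and RNF123 were named outside this rule after their values were seen. The inhibitor genes and the lists were chosen with earlier results of these data known. CDKN1C, CDKN2C and CDKN2B-AS1 rest on few counts.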

Additional observations from a re-analysis of the deposited data

How the results depend on the processing

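Of 1038 recomputed log2 fold changes of the 7 tested inhibitor genes, 985 kept their direction and side of the threshold, 30 lost the call, 4 gained one and 19 changed sign. The calls of CDKN1A, CDKN1B, CDKN2A, CDKN2B and CDKN2C in EV_4OHT against EV held under all 25 alternatives, as did CDKN2A in shAHCY_4 against EV_4OHT. The number of inhibitor genes lower in shAHCY_2 against EV_4OHT was 1, became 0 under 3 alternatives (library totals alone, no low-count filter, GC trend removed) and ranged from 0 to 2 when 1 library was left out. With the GC trend removed, 1 gene (CDKN1A) was higher in shAHCY_4 against EV_4OHT and 1 (CDKN1A) lower in shAHCY_2 against shAHCY_4. The cause was not tested.

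Changes of sign concerned differences that never passed. In shAHCY_2 against shAHCY_4, CDKN2B became -0.0052 (limma-voom) and -0.0225 (GC trend removed), and CDKN2D 0.0146 with the GC trend removed. In shAHCY_2 against EV_4OHT, CDKN2D became 0.00465 (library totals alone) and 0.01999 (GC trend removed). Leaving out 1 library gave ranges of -0.22 to 0.0473 for CDKN1B and -0.185 to 0.065 for CDKN2D in shAHCY_2 against EV_4OHT, and of -0.0459 to 0.0996 for CDKN2D in shAHCY_4 against EV_4OHT. The ranges were -0.0273 to 0.113 for CDKN2A, -0.13 to 0.09 for CDKN2B and -0.211 to 0.0507 for CDKN2D in shAHCY_2 against shAHCY_4, and -0.627 to 0.0594 for CDKN2B-AS1 in shAHCY_4 against EV.

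Library totals alone moved the median log2 change of all genes in EV_4OHT against EV to -0.13 and the share of higher calls to 38.2%, against 49.9%. The 168 genes called between the hairpins became 620 with the GC trend removed, 487 with DESeq2 and 69 without shAHCY_4 replicate 62. For the regulators of the INK4/ARF locus, the count lower in EV_4OHT against EV ranged from 2 to 7, and for stress response genes in shAHCY_4 against EV_4OHT the count higher ranged from 2 to 7 and the count lower from 1 to 4. Other list counts that moved by over 1.5 times ranged over 0 to 2 (ubiquitin ligase subunits higher), 1 to 3 (CDKs and cyclins higher), 1 to 4 (stress response genes lower) and 1 to 2 (locus neighbours higher) in EV_4OHT against EV. With shAHCY_2 against EV_4OHT they ranged over 0 to 1 (pocket proteins and E2F higher, stress response genes higher), 0 to 2 (locus regulators higher) and 1 to 2 (locus regulators lower), and with shAHCY_4 over 0 to 2 (CDKs and cyclins lower) and 0 to 1 (pocket proteins and E2F lower). Over all genes, 349 to 722 were higher and 273 to 708 lower in shAHCY_2 against EV_4OHT, and 679 to 1577 higher and 639 to 1559 lower in shAHCY_4 against EV_4OHT. No paired analysis was possible because the replicate numbers, 49 to 64, are not shared between groups.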
